A study of Mus musculus with 12 samples.

Results

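Limb and trunk homeobox genes outside the Hox clusters were followed in mouse embryonic fibroblasts (MEFs), connective tissue cells grown from embryos. The genes were chosen by name, with earlier results of these data known. Among the 27962 gene names on the array 37 were looked for, and 35 were found, read by 56 probes. The name Dlx6 was not used on the array. Meis2 stands there under its older name Mrg1 and so was not a member. Hopx is written Hod on the array. A level below is the log2 of a probe's processed signal minus the 75th percentile of its array, so that 0 equals that percentile, and levels of different probes are not set against each other.

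The 12 arrays held RNA from SIRT1 KO (described as homozygous), SIRT1 Het (heterozygous) and WT MEFs, with 4 arrays each. SIRT1 is an NAD-dependent protein deacetylase. All groups were labelled female, received no special treatment and were grown alike in serum-containing medium to the logarithmic phase of growth. The labels give neither strain, embryo age nor the deleted part of the gene, and do not say whether arrays of a genotype came from separate embryos or cultures. The p-values therefore reflect no more than the variation among these arrays, which may be technical.

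Most homeobox genes encode transcription factors whose homeodomain binds short AT-rich DNA motifs. The members were chosen by name, and whether each encodes a homeodomain was not checked. Outside the Hox clusters, families such as Prrx, Msx, Dlx, Pitx, Lhx, Irx and Pax mark where in the embryo a mesenchymal cell lies: limb bud, face, somite or body wall. Fibroblasts are known to keep part of such positional expression in culture.

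A few sequences are shown because the results turn on these genes. The 60-base probe for Shox2 lies on chr3:67076519-67076898, minus strand, of build mm7. Its 60 bases span 380 bases of genome, so it is split across a gap there. For the other 6 genes the first 30 bases of the probe are shown. The probes lie at chr5:36902462-36902521 (Msx1, minus), chr2:38376724-38376783 (Lhx2, plus), chr1:78328329-78328388 (Pax3, minus), chr8:90954274-90954333 (Irx5, plus), chr5:77019011-77019070 (Hopx, minus) and chr13:113508612-113508671 (Isl1, minus), all on mm7. Gene models of mm7 were not used here, so exons and untranslated regions are not given.
Shox2: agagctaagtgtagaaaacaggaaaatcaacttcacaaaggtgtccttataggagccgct
Msx1: acacttcctcctggttgtcgcttcctaaac
Lhx2: agagcttccgtattttcaaagactgccacg
Pax3: aaatattagtctcgatcctttgataccgtg
Irx5: tatggagatggatggcataaaaatgtatac
Hopx: ctttggattttaatgaaagatgatgtggga
Isl1: cccccaaagatgtgtatagttattggttaa

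Promoter windows of 250 bases before the annotated start were read from RefSeq (GRCm38.p6), in gene orientation, for some of the members called below. Of the 35 members, 26 had such a window. Capitals mark matches on either strand to the GC box (GGGCGG), the CCAAT box (CCAAT), the TATA box (TATAAA), a MEIS half-site (TGACAG) and a paired TAAT core (TAATTA). Msx1 is at chr5:37824586-37824835 (minus), Lhx2 at chr2:38339031-38339280 (plus, the more upstream of 2 windows), Prrx2 at chr2:30845117-30845366 (plus), Shox2 at chr3:66981772-66982021 (minus) and Hopx at chr5:77115124-77115373 (minus, the more upstream of 2 windows).
Msx1: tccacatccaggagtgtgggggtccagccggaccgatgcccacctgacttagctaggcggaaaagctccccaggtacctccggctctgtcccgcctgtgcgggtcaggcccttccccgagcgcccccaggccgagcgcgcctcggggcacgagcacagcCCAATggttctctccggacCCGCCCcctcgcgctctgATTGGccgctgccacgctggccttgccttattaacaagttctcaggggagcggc
Lhx2: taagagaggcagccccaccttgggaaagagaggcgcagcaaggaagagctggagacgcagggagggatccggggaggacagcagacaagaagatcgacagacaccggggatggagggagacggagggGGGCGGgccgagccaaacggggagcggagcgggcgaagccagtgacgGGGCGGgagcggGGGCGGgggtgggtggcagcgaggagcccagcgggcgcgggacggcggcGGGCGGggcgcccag
Prrx2: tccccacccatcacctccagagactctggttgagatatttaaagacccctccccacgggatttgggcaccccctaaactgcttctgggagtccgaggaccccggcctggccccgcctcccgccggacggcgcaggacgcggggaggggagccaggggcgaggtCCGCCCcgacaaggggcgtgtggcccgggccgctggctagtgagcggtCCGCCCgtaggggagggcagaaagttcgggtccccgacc
Shox2: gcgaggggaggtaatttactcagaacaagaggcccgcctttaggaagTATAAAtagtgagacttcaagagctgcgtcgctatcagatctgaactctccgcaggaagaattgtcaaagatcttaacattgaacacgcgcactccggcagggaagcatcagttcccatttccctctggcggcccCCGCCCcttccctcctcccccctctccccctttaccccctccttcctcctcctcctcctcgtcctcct
Hopx: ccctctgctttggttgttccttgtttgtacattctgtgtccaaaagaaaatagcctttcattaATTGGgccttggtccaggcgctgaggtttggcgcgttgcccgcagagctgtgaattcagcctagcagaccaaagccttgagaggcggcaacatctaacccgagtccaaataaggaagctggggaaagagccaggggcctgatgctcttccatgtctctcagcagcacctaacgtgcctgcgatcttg
The window of Lhx2 holds 4 GC boxes, that of Prrx2 2, and those of Msx1 and Shox2 1 each. Msx1 has 2 CCAAT boxes, Hopx 1, and Shox2 has 1 TATA box. None of these 5 windows holds a MEIS half-site or a paired TAAT core. The windows of Six5 and Meis1, called below too, were read but are not shown. That of Six5 holds 1 GC box and 1 MEIS half-site, and that of Meis1 1 CCAAT box. Over all 32851 RefSeq windows, 32.7% hold a GC box, 33.8% a CCAAT box, 12.4% a TATA box, 15.9% a MEIS half-site and 4.8% a paired TAAT core. A match is a description of letters, not of a binding site.

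Some facts of the whole series touch these genes. The 3 arrays numbered 3 in their titles, 1 per genotype, stood apart: over all probes, arrays of 1 genotype correlated at 0.9515 to 0.9769 where number 3 was in the pair and at 0.9677 to 0.9958 where it was not. KO replicates 4 and 5 correlated at 0.9958. The sex genes of the array labelled WT replicate 3 contradicted its label: Xist, which coats the silenced X chromosome, had a level of −2.94 there and at 1.66 to 3.42 on the other 11 arrays, and the Y-linked Ddx3y was at 1.04 there and at −4.35 or less elsewhere. At 1 of 2 Sirt1 probes KO arrays were at −0.75 to −0.19, against 0.33 to 0.39 on Het arrays and 0.06 to 0.52 on WT arrays, and at the other probe the genotypes overlapped. The 4 arrays of 1 slide (KO replicates 4 and 5, Het replicate 5 and WT replicate 5) had 31642 to 32031 probes well above background, against 24582 to 26696 on the other 8, so dim genes are read more readily on that slide. All 10 fibroblast markers were well above background on all 12 arrays.

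The members differed in how far they varied between arrays. Of the 35, 22 were well above background on all 12 arrays, 13 on 1 to 11 arrays, and 0 on no array. In 14 members the lowest and highest array differed by more than 4 on the log2 scale, and in 10 by less than 2. The ranges of all genes were not counted, so these are no result about the members. Some of the wide ranges lie largely at background, as that of Dlx3 (4.05, well above background on 1 array). Among those above background on all arrays, Pitx1, which specifies the hindlimb, had the widest range (8.65). Ranges were also wide for Lhx8, a LIM homeobox gene of the facial mesenchyme and forebrain, and Isl1, which is needed to start the hindlimb bud, but their low ends lie at background. The narrowest were those of the TALE cofactors Pbx3 (1.29) and Pbx2 (1.38), which bind DNA together with Hox proteins. The test took genes that cleared background on every array of 1 or more genotypes, and 28 of the 35 members did. Dlx3, Lhx8, Lmx1b, Six2, Barx1, Isl1 and Pax1 did not.

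**Figure D1:**
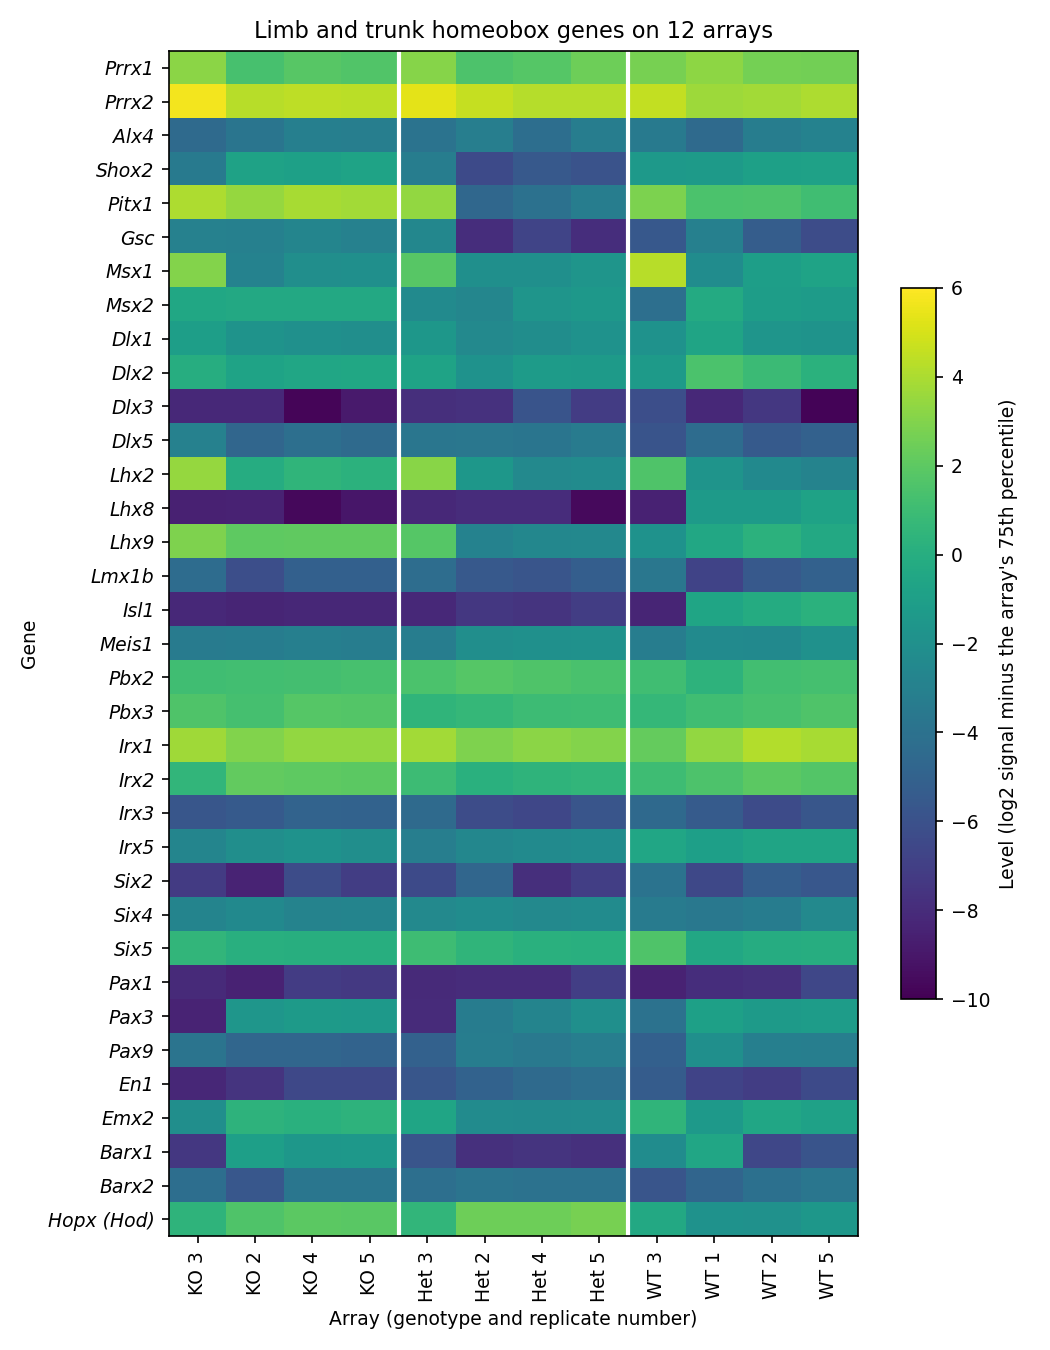
Level of each of the 35 members (rows) on each of the 12 arrays (columns, KO, Het, then WT, with number 3 first in each genotype), as log2 signal minus the array's 75th percentile. Msx1 is bright on the 3 arrays numbered 3, and Lhx8 and Isl1 are bright on WT replicates 1, 2 and 5.

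Between genotypes, Irx5 and Hopx differed from WT in both KO and Het cells, and Shox2 was low in Het cells. A member was called when its limma adjusted p over all 16989 tested gene names was under 0.05. KO against WT called 2 of 28 members (1 higher, 1 lower), against 1.64% of all tested genes. Het against WT called 3 of 28 (1 higher, 2 lower), against 1.17%, and KO against Het called 2 of 28 (1 higher, 1 lower), against 0.995%. The lower call of KO against Het is En1, which passed the filter only through Het, its high genotype, and so supports nothing here. The KO and Het comparisons share the WT arrays, and KO against Het shares its arrays with both. The median log2 fold change of the 28 was 0.17 for KO against WT, where that of all genes was 0.08. It was −0.37 for Het against WT (all genes 0.08) and 0.21 for KO against Het (all genes −0.02). A difference above 2-fold was seen in 11 of 28 members (39.3%, against 7.42% of all genes), 12 (42.9%, against 7.39%) and 9 (32.1%, against 7.02%) in these comparisons. At an unadjusted p under 0.05 there were 5 members (17.9%, against 16.5% of all genes), 10 (35.7%, against 16.3%) and 10 (35.7%, against 11.2%). En1 is again counted in Het against WT and KO against Het. The members were chosen with earlier results of these data known, so these shares support nothing by themselves. Among the 22 members well above background on all 12 arrays the calls were 2, 2 and 0, against 1.72%, 1.21% and 0.771% of 14665 such genes.

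Irx5, an Iroquois gene that shapes the repolarization gradient of the heart and takes part in limb and face patterning, was at −2.10, −2.73, −1.86 and −2.07 on KO arrays 2, 3, 4 and 5. On Het arrays 2, 3, 4 and 5 it was at −2.62, −3.13, −2.36 and −2.21. On WT arrays 1, 2, 3 and 5 it was at −0.94, −0.66, −0.56 and −0.63. Every KO and every Het array lay below every WT array, while KO and Het overlapped. Irx5 averaged −2.19 ± 0.37 in KO cells, −2.58 ± 0.41 in Het cells and −0.70 ± 0.16 in WT cells (SD, n = 4 each). It fell 2.81-fold in KO cells (log2 fold change −1.49, SE 0.23, adjusted p = 0.0124) and 3.68-fold in Het cells (−1.88, SE 0.23, adjusted p = 0.00807). Within slide 3 the differences from WT were −1.49 for KO and −2.01 for Het, and within slide 4 −1.33 and −1.57. Slide 3 holds KO and Het replicate 2 and WT replicates 2 and 3. Slide 4 holds KO replicates 4 and 5 and Het and WT replicate 5, so values within a slide rest on few arrays. Both calls held in all 27 alternative settings.

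Hopx encodes a homeodomain-only protein that does not bind DNA and modulates serum response factor in the heart. Its levels were 1.58, 0.42, 1.95 and 1.88 on KO arrays 2, 3, 4 and 5. They were 2.48, 0.55, 2.49 and 2.71 on Het arrays 2, 3, 4 and 5, and −1.87, −1.91, −0.35 and −1.52 on WT arrays 1, 2, 3 and 5. WT lay below both other genotypes on every array. In KO and Het cells number 3 was the lowest array, and in WT cells the highest. Hopx rose 7.30-fold in KO cells (2.87, SE 0.53, adjusted p = 0.0262) and 11.1-fold in Het cells (3.47, SE 0.53, adjusted p = 0.0189). Within slides 3 and 4 the differences were 2.72 and 3.43 for KO and 3.61 and 4.23 for Het. The WT mean of slide 3 includes WT replicate 3, the highest WT array. The KO call was lost without any 1 of KO replicates 2, 4 and 5 and WT replicates 1, 2 and 5 (adjusted p 0.0570 to 0.109). A slide block gave 3.00 (adjusted p = 0.0665). The Het call was lost without any 1 of Het replicates 2, 4 and 5 and WT replicates 2 and 5 (0.0553 to 0.0807). Counting all alternatives, the KO call held in 18 of 27 and the Het call in 20 of 27.

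Shox2, which is needed for the proximal limb skeleton and the sinoatrial node, was at −0.77, −3.46, −0.90 and −0.69 on KO arrays 2, 3, 4 and 5. It was at −6.41, −3.24, −5.51 and −5.93 on Het arrays 2, 3, 4 and 5, and at −1.30, −0.88, −1.32 and −0.83 on WT arrays 1, 2, 3 and 5. All Het arrays lay below all WT arrays. On the arrays numbered 3, KO and Het met at nearly the same level, KO lower and Het higher than the rest of their genotypes. Shox2 was 18.2-fold lower in Het than in WT cells (−4.19, SE 0.72, adjusted p = 0.0341) and 14.1-fold higher in KO than in Het cells (3.82, SE 0.72, adjusted p = 0.0340). Shox2 cleared background on 3 of 4 Het arrays. KO against WT had −0.37 (adjusted p = 0.863). The Het against WT call was lost without any 1 of KO replicates 2, 4 and 5, Het replicates 2, 4 and 5, and WT replicates 2 and 5 (adjusted p 0.0561 to 0.117), and the KO against Het call without the same arrays (0.0536 to 0.133). A slide block gave −4.28 (adjusted p = 0.148) and 3.74 (adjusted p = 0.136). Counting all alternatives, Het against WT kept its call in 13 of 25 and KO against Het in 12 of 25. Within slides 3 and 4 Het against WT gave −5.31 and −5.10, and KO against Het gave 5.63 and 5.14 there but 0.91 on slide 1, which holds KO and Het replicate 3.

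En1, an engrailed gene of the ventral limb ectoderm and of a dermal fibroblast lineage, is read by 10 spots per array. Its levels were −7.57, −8.25, −6.53 and −6.55 on KO arrays 2, 3, 4 and 5. They were −4.94, −5.71, −4.49 and −4.14 on Het arrays 2, 3, 4 and 5, and −6.79, −7.10, −5.37 and −6.38 on WT arrays 1, 2, 3 and 5. Every KO array lay below every Het array. En1 was 5.30-fold lower in KO than in Het cells (−2.41, SE 0.49, adjusted p = 0.0468). It passed the filter only through Het, its high genotype, and cleared background on 2 of 4 KO, 4 of 4 Het and 2 of 4 WT arrays, so the size is against signals partly at background and the call supports nothing by itself. On KO replicates 2 and 3, 0 of the 10 spots were well above background. The call was held in 9 of 25 alternatives. It was lost without any 1 array other than Het replicate 3 and WT replicate 3 (adjusted p 0.0561 to 0.171), under a slide block (−2.69, 0.0529) and with a normexp background correction (−0.53, 0.800).

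Pitx1 and Lhx9 were not called between genotypes with all arrays, but their genotypes separated in part. Pitx1 was at 3.48, 4.01, 3.89 and 3.77 on KO arrays 2, 3, 4 and 5. On Het arrays 2, 3, 4 and 5 it was at −4.64, 3.43, −4.05 and −3.22, and on WT arrays 1, 2, 3 and 5 at 1.49, 1.53, 2.83 and 1.07. KO lay above both others on every array. Het replicate 3 lay above all WT arrays, whereas the other Het arrays lay below them. KO against WT gave 2.06 (SE 1.39, adjusted p = 0.510) and KO against Het 5.91 (SE 1.39, adjusted p = 0.0911). Lhx9, a LIM homeobox gene of the gonad and limb mesenchyme, was at 2.06, 2.92, 2.08 and 2.11 on KO arrays 2, 3, 4 and 5. It was at −2.88, 1.79, −2.57 and −2.53 on Het arrays 2, 3, 4 and 5, and at −0.40, 0.30, −1.87 and −0.36 on WT arrays 1, 2, 3 and 5. KO was again above both others on every array, and Het replicate 3 was far above the rest of its genotype. KO against WT gave 2.88 (SE 0.89, adjusted p = 0.140) and KO against Het 3.84 (SE 0.89, adjusted p = 0.0866), and a second Lhx9 probe gave 2.47 and 3.98.

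**Figure D2:**
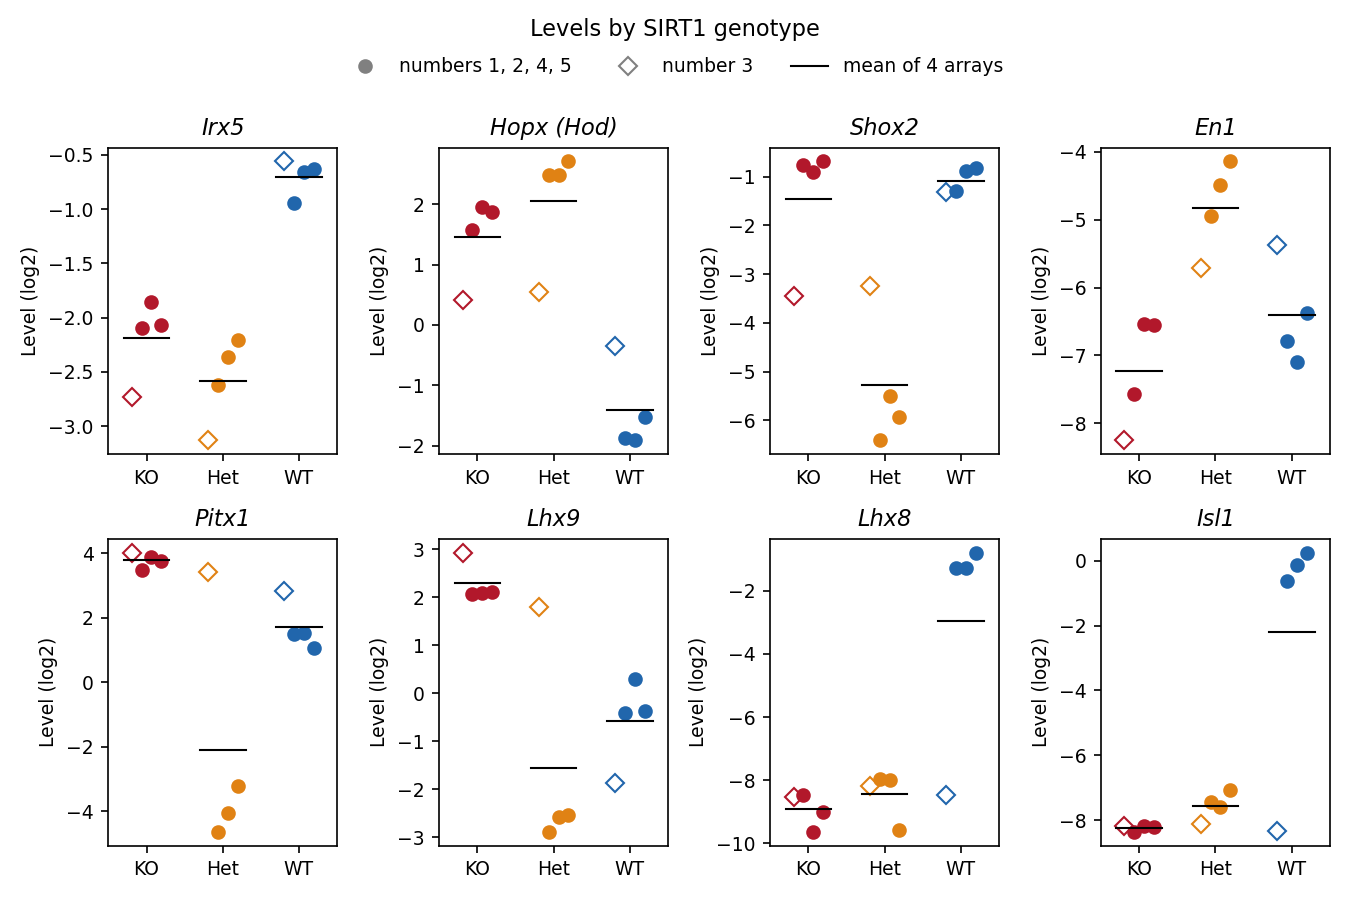
Levels (log2 signal minus the array's 75th percentile) of 8 members by genotype, KO, Het and WT from left to right, 4 arrays each. Open diamonds are the arrays numbered 3 and black lines the means of 4 arrays. Irx5 is lower and Hopx higher than WT on every KO and Het array, and Lhx8 and Isl1 are high on 3 of 4 WT arrays.

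Among the 28 tested members, all KO arrays lay on 1 side of all WT arrays in 4, against 8.83% of all tested genes. Pitx1, Hopx and Lhx9 lay above and Irx5 below. In Het against WT 7 members separated in this way (all genes 9.26%): Pbx2, Hopx, Six4 and Dlx5 above, and Irx2, Irx5 and Shox2 below. In KO against Het 6 members separated (all genes 10.6%): Pbx3, Pitx1, Lhx9 and Msx2 above, and Pbx2 and En1 below. En1 is counted although it passed the filter only through Het, its high genotype, and so supports nothing here. Six4 is a partner of EYA coactivators in muscle precursors, and Dlx5 promotes bone formation. Neither passed in Het against WT, where Dlx5 gave 1.54 (adjusted p = 0.0757) and Six4 gave 0.83 (adjusted p = 0.0913).

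Among the untested members, Isl1 and Lhx8 were high on WT replicates 1, 2 and 5 and low on the other arrays. Isl1 was at −8.36 to −8.18 on KO arrays and −8.13 to −7.07 on Het arrays. It was well above background on 1 KO and 1 Het array (7 of 10 spots on KO replicate 4, 8 of 10 on Het replicate 5). On WT arrays 1, 2, 3 and 5 it was at −0.62, −0.14, −8.33 and 0.24. WT replicate 3 was thus at the level of the other genotypes, while the remaining WT arrays were more than 6 log2 units above every KO and Het array. Isl1 is read by 10 spots. Over the 8 to 10 left without outliers, the SD within an array was 0.036 to 0.051 on those 3 WT arrays. Lhx8 was at −9.63 to −8.47 on KO arrays and −9.59 to −7.96 on Het arrays, with none of the 8 well above background. On WT arrays 1, 2, 3 and 5 it was at −1.28, −1.29, −8.46 and −0.80. With WT replicate 3 included, Lhx8 was at least 18.5-fold lower in KO and at least 9.83-fold lower in Het cells. Its second probe gave −3.11, −3.57, −8.45 and −2.99 on the same WT arrays. A second probe of Alx4, an aristaless-like gene of limb polarity, was also bright on these 3 WT arrays (−1.36, −1.81 and −1.17) and at −8.55 to −6.85 on the other 9, whereas the probe that stands for the gene ranged from −4.49 to −2.91 with no such split. The 2 Alx4 probes thus disagree.

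Barx1, a gene of stomach mesenchyme and teeth, was at −0.95, −7.40, −1.56 and −1.45 on KO arrays 2, 3, 4 and 5. It was at −7.78 to −5.80 on Het arrays, none of them well above background, and at −0.52, −6.59, −2.25 and −5.84 on WT arrays 1, 2, 3 and 5. High and low arrays were mixed within WT. The remaining untested members were dim: Dlx3 was well above background on 1 array, Pax1 on 4, Six2 on 7 and Lmx1b on 8. Lmx1b, which specifies the dorsal limb, was well above background on the 3 arrays numbered 3 (−4.32 in KO, −4.31 in Het and −3.68 in WT), and those 3 had its highest levels.

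The arrays numbered 3 were compared with the other 9 in a fit with genotype as a second term. That number 3 stands apart was already known from earlier results of these data. The adjusted p-values of this comparison do not allow for that choice. Msx1, Lhx2, Prrx2 and Six5 rose and Pax3 and Meis1 fell on number 3, 6 of 28 members (4 higher, 2 lower), against 8.94% of all tested genes. Above 2-fold were 10 members (35.7%, against 8.97% of all genes). In 7 members, 5 higher and 2 lower, number 3 lay beyond every other array of its genotype, in the same direction in all 3 genotypes, against 16.2% of all genes. The seventh was Pitx1. With 1 array numbered 3 per genotype, number and culture cannot be told apart, and 1 of the 3 is the array whose sex genes contradict its label. Leaving out that array, WT replicate 3, left 8 of 30 members called (26.7%, against 5.12% of all genes), and leaving out KO replicate 3 gave 11 of 29 (37.9%, against 17.2%).

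Msx1, a repressor that keeps limb bud and facial mesenchyme undifferentiated, was at 3.02 (KO), 1.85 (Het) and 4.28 (WT) on number 3. On the other KO arrays it was at −2.90, −2.11 and −2.03, on the other Het arrays at −2.01, −2.02 and −1.64, and on the other WT arrays at −2.21, −1.02 and −0.74. The groups were far apart in every genotype. Msx1 averaged 3.05 ± 1.21 on number 3 and −1.85 ± 0.65 on the others (SD, n = 3 and 9), a 29.9-fold difference (4.90, SE 0.38, adjusted p = 0.000114). Its second probe showed the same split, −1.53 to 0.47 on number 3 and −8.27 to −4.93 on the others.

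Lhx2, a LIM homeobox gene that relays growth signals in the limb bud and patterns the eye and forebrain, was at 3.44 (KO), 3.18 (Het) and 1.59 (WT) on number 3. On the others it was at −0.08, 0.46 and 0.30 in KO, −1.53, −2.49 and −2.31 in Het, and −1.72, −2.43 and −2.82 in WT. The groups did not overlap. The difference was 17.6-fold (4.14, SE 0.37, adjusted p = 0.000205). Among the other arrays, KO was the highest genotype.

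Pax3 marks the dermomyotome, migrating limb muscle precursors and neural crest. It is read by 10 spots per array and was at −8.42 (KO), −8.06 (Het) and −4.00 (WT) on number 3. On the others it was at −1.57, −1.29 and −1.35 in KO, −3.26, −2.80 and −2.04 in Het, and −0.88, −1.30 and −1.18 in WT. Number 3 was the lowest array of each genotype. Pax3 was 34.0-fold lower (−5.09, SE 0.56, adjusted p = 0.000600), with 1 of 3 number 3 arrays well above background. Over the 8 to 10 spots left without outliers, the SD on arrays with all spots above background was 0.030 to 0.116.

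The other 3 calls were smaller. Prrx2, a paired-related gene of limb and facial mesenchyme, was at 5.72 (KO), 5.37 (Het) and 4.54 (WT) on number 3, against 4.27, 4.42 and 4.35 on the other KO arrays, 4.59, 4.22 and 4.21 on the other Het arrays, and 3.65, 3.80 and 4.01 on the other WT arrays. Number 3 was highest in each genotype (1.04, SE 0.15, adjusted p = 0.00267). Six5, a sine oculis family gene, was at 0.50 (KO), 1.05 (Het) and 1.57 (WT) on number 3. On the others it was at 0.11, 0.00 and 0.05 in KO, 0.48, 0.14 and 0.10 in Het, and −0.38, −0.10 and −0.04 in WT (1.00, SE 0.21, adjusted p = 0.0162). Meis1, a TALE cofactor of the proximal limb, was at −3.33 (KO), −3.25 (Het) and −3.23 (WT) on number 3, against −3.26, −3.10 and −3.22 in KO, −2.10, −1.99 and −1.93 in Het, and −2.35, −2.43 and −1.90 in WT on the others. The gap was wide in Het and WT and slight in KO (−0.79, SE 0.20, adjusted p = 0.0319).

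The calls of Msx1, Lhx2 and Pax3 held in every alternative run (22, 22 and 21 settings). That of Prrx2 was lost under a slide block (0.95, adjusted p = 0.0548) and that of Six5 without WT replicate 3 (0.63, adjusted p = 0.0550). That of Meis1 was lost under a slide block (−0.91, 0.0863), on unscaled signals (−0.63, 0.123) and with a normexp background (−0.74, 0.0645). It was also lost with no filter on dim probes (−0.79, 0.072) and without KO replicate 4, Het replicates 3, 4 or 5, or WT replicate 3 (0.0549 to 0.157). Within slide 1 (Het replicate 3 minus Het replicate 4) Msx1 gave 3.87, Lhx2 5.67 and Pax3 −5.26. Within slide 3 (WT replicate 3 minus WT replicate 2) they gave 5.30, 4.01 and −2.70.

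**Figure D3:**
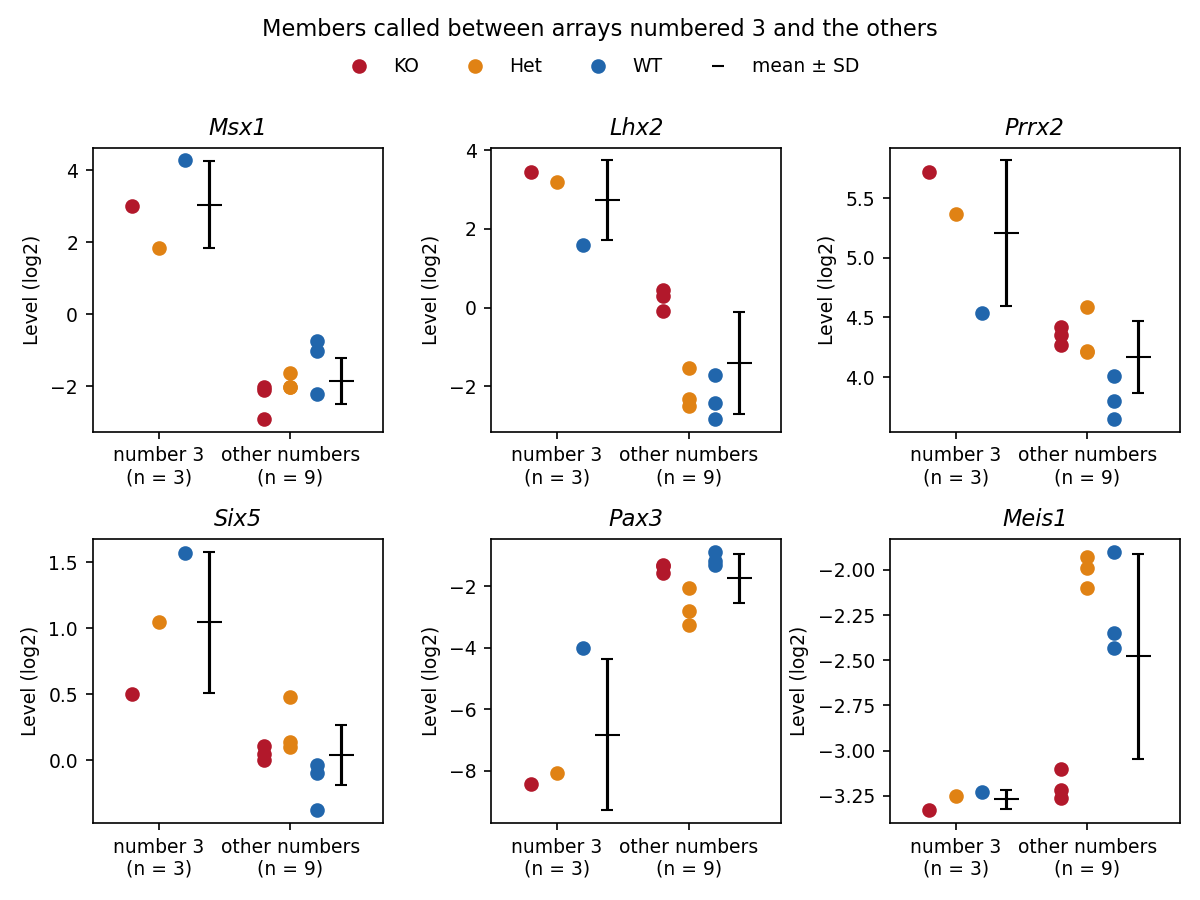
Levels (log2 signal minus the array's 75th percentile) of the 6 members called between the 3 arrays numbered 3 (left) and the 9 others (right), 1 point per array, coloured by genotype, with mean ± SD in black. Msx1, Lhx2 and Six5 lie higher on number 3 than on all others, and Pax3 lower.

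For other members the distance of number 3 from the rest varied with genotype. Prrx1, which with Prrx2 directs limb mesenchyme, was 1.60 higher on number 3 in KO and 1.21 higher in Het, but gave −0.10 in WT (0.90 over all, adjusted p = 0.0957). Of its probes fitted singly, 1 of the 5 tested passed (1.36, adjusted p = 0.0123). Pitx1 was 7.40 higher on number 3 in Het, 1.47 in WT and 0.30 in KO (3.06 over all, adjusted p = 0.0800). Gsc, the goosecoid gene of the organizer and face, was 4.94 higher in Het and gave −0.09 in KO and −0.71 in WT. Emx2, a gene of the urogenital tract, cortex and scapula, gave −2.38 in KO but 1.69 in Het and 1.36 in WT. Irx2 gave −1.55 in KO, 0.58 in Het and −0.67 in WT, and KO replicate 3 was the lowest KO array at all 3 of its probes. Msx2, a paralog of Msx1, gave −3.30 in WT, −0.14 in KO and −0.46 in Het, and so did not follow Msx1. These differences between genotypes were not tested.

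Marker genes of other cell types moved along with number 3. The log2 summed signal of 7 neural or neural crest markers was 1.33 to 2.02 on number 3 and 3.14 to 4.45 on the others, that of 10 mesothelial or epithelial markers was 1.74 to 3.64 against 4.29 to 6.04, and that of 8 cartilage or bone markers was 2.43 to 2.73 against 1.46 to 2.26. A sum follows its brightest genes, and members of a list differed in direction. Among neural markers Nes was lower on number 3 (−2.19, adjusted p = 0.000825), while Sox2, not among the tested genes, was at −4.51 or more there and at −7.59 or less on the others. Among the 9 tested mesothelial or epithelial markers 1 was called higher (Cdh1, 2.47, adjusted p = 0.0274) and 3 lower (Msln, −3.11, Krt18, −2.25, and Krt8), with a median of −0.06. Of 7 tested cartilage or bone markers, Col10a1 was called (4.40, adjusted p = 0.0174). Skeletal muscle (0.72 to 1.43 against 0.40 to 2.51), endothelial (−3.32 to −1.44 against −3.60 to −1.04) and macrophage markers (−2.19 to −2.06 against −2.45 to −1.25) overlapped. Their part in the results on Msx1, Lhx2, Pax3 and the other members was not tested. In such bulk RNA, fewer cells of a type and less RNA per cell cannot be told apart. Among fibroblast markers, whose summed signal was 8.76 to 9.43 on all arrays, Thy1 was lower in KO than in WT cells (−3.47, adjusted p = 0.00169) and Dcn was lower in KO than in Het cells (−3.21, adjusted p = 0.0194). Dcn was 1 of 2 fibroblast markers called lower in KO against Het, and 1 was called higher on number 3. Of mesothelial or epithelial markers, 1 was called higher in KO against WT, and 1 higher and 1 lower in Het against WT.

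Without the arrays numbered 3 the genotypes, now with 3 arrays each, differed in many more members, as they did in many more genes of the whole array. Number 3 was left out knowing from earlier results of these data that it stands apart. Leaving it out tends to lower the spread within a genotype, and the adjusted p-values here do not allow for that choice. Here 31 members passed the filter. Isl1 and Lhx8 passed it only through WT, Barx1 and Irx3 only through KO and En1 only through Het, the genotype in which each is high, so that a difference was built into their selection and they support nothing here. KO against WT called 12 of 31 (5 higher, 7 lower), against 17.1% of 17808 genes. Het against WT called 14 (3 higher, 11 lower), against 12.1%, and KO against Het called 15 (10 higher, 5 lower), against 9.11%. With only genes well above background on all 9 arrays, 23 members remained, a setting chosen after seeing the data. KO against WT then called 11 of 23 (6 higher, 5 lower), against 19% of 15085 genes. Het against WT called 9 (1 higher, 8 lower), against 12.7%, and KO against Het 10 (7 higher, 3 lower), against 8.94%. Prrx2 in KO against WT (0.53, adjusted p = 0.0422) and Irx1 in Het against WT (−0.76, adjusted p = 0.0460) were called with this filter and not with the other one. KO replicates 4 and 5, as alike as stated above, supply most of the KO group here.

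KO cells without number 3 had higher Pitx1 (2.35, SE 0.33, adjusted p = 0.00233), Lhx2 (2.55, SE 0.34, adjusted p = 0.00180), Lhx9 (2.24, SE 0.20, adjusted p = 0.000273), Emx2 (1.19, adjusted p = 0.00489) and Hopx (3.57, adjusted p = 9.37e-06) than WT cells. Lower in KO cells were Pax9 (−2.02, adjusted p = 0.00262), a gene of sclerotome and teeth, Dlx2 (−1.47, adjusted p = 0.0135), a branchial arch gene, Irx5 (−1.27, adjusted p = 0.0014), Prrx1 (−1.24, adjusted p = 0.0206) and Meis1 (−0.96, adjusted p = 0.00543). Of the members that passed only through WT, Lhx8 was at least 81.4-fold lower, and Isl1 averaged −8.26 ± 0.09 in KO cells and −0.17 ± 0.43 in WT cells (SD, n = 3 each). Isl1 was well above background on 1 of these 3 KO arrays.

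Het cells without number 3 had lower Pitx1 (−5.33, SE 0.33, 40.3-fold, adjusted p = 6.1e-05), Shox2 (−4.95, SE 0.24, 30.8-fold, adjusted p = 1.8e-05), Lhx9 (−2.50, adjusted p = 0.000229), Dlx2 (−2.33, adjusted p = 0.00245), Irx5 (−1.65, adjusted p = 0.000568), Emx2 (−1.40, adjusted p = 0.00333) and Irx2 (−1.35, adjusted p = 0.00197) than WT cells. Pax3 (−1.58, adjusted p = 0.00975) and Gsc (at least 2.83-fold, adjusted p = 0.0494) were lower too. Higher in Het cells were Hopx (4.33, adjusted p = 4.59e-06) and Dlx5 (1.36, adjusted p = 0.0183). Of the members selected through 1 genotype, Lhx8 was at least 38-fold lower. Isl1 averaged −7.37 ± 0.27 in Het cells, with 1 of 3 arrays well above background, and −0.17 ± 0.43 in WT cells. En1 averaged −4.52 ± 0.40 in Het cells and −6.76 ± 0.36 in WT cells, with 1 of 3 WT arrays well above background (SD, n = 3 each). Pitx1, Lhx9 and Emx2 thus lay on opposite sides of WT in KO and Het cells.

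KO against Het without number 3 gave 7.68 for Pitx1 (SE 0.33, 206-fold, adjusted p = 1.4e-05), 5.16 for Shox2 (35.8-fold, adjusted p = 1.6e-05) and 4.74 for Lhx9 (26.7-fold, adjusted p = 1.4e-05). Gsc was at least 11-fold higher (adjusted p = 0.00533) and Barx1, selected through KO alone, at least 33.2-fold higher. Neither cleared background on any of these 3 Het arrays. Also higher in KO cells were Emx2 (2.59), Lhx2 (2.34), Irx2 (1.68), Msx2 (1.58) and Pax3 (1.30), with adjusted p of 0.000146 to 0.0241. Lower were Pax9 (−1.47), Meis1 (−1.19) and Hopx (−0.76), with adjusted p of 0.0027 to 0.0238. En1, selected through Het alone, averaged −6.88 ± 0.60 in KO cells and −4.52 ± 0.40 in Het cells. The 15 calls include Isl1, which lies near background in both KO and Het cells, with 1 of 3 arrays of each well above it. These values are from the same arrays as above and give no second sample of cells.

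**Figure D4:**
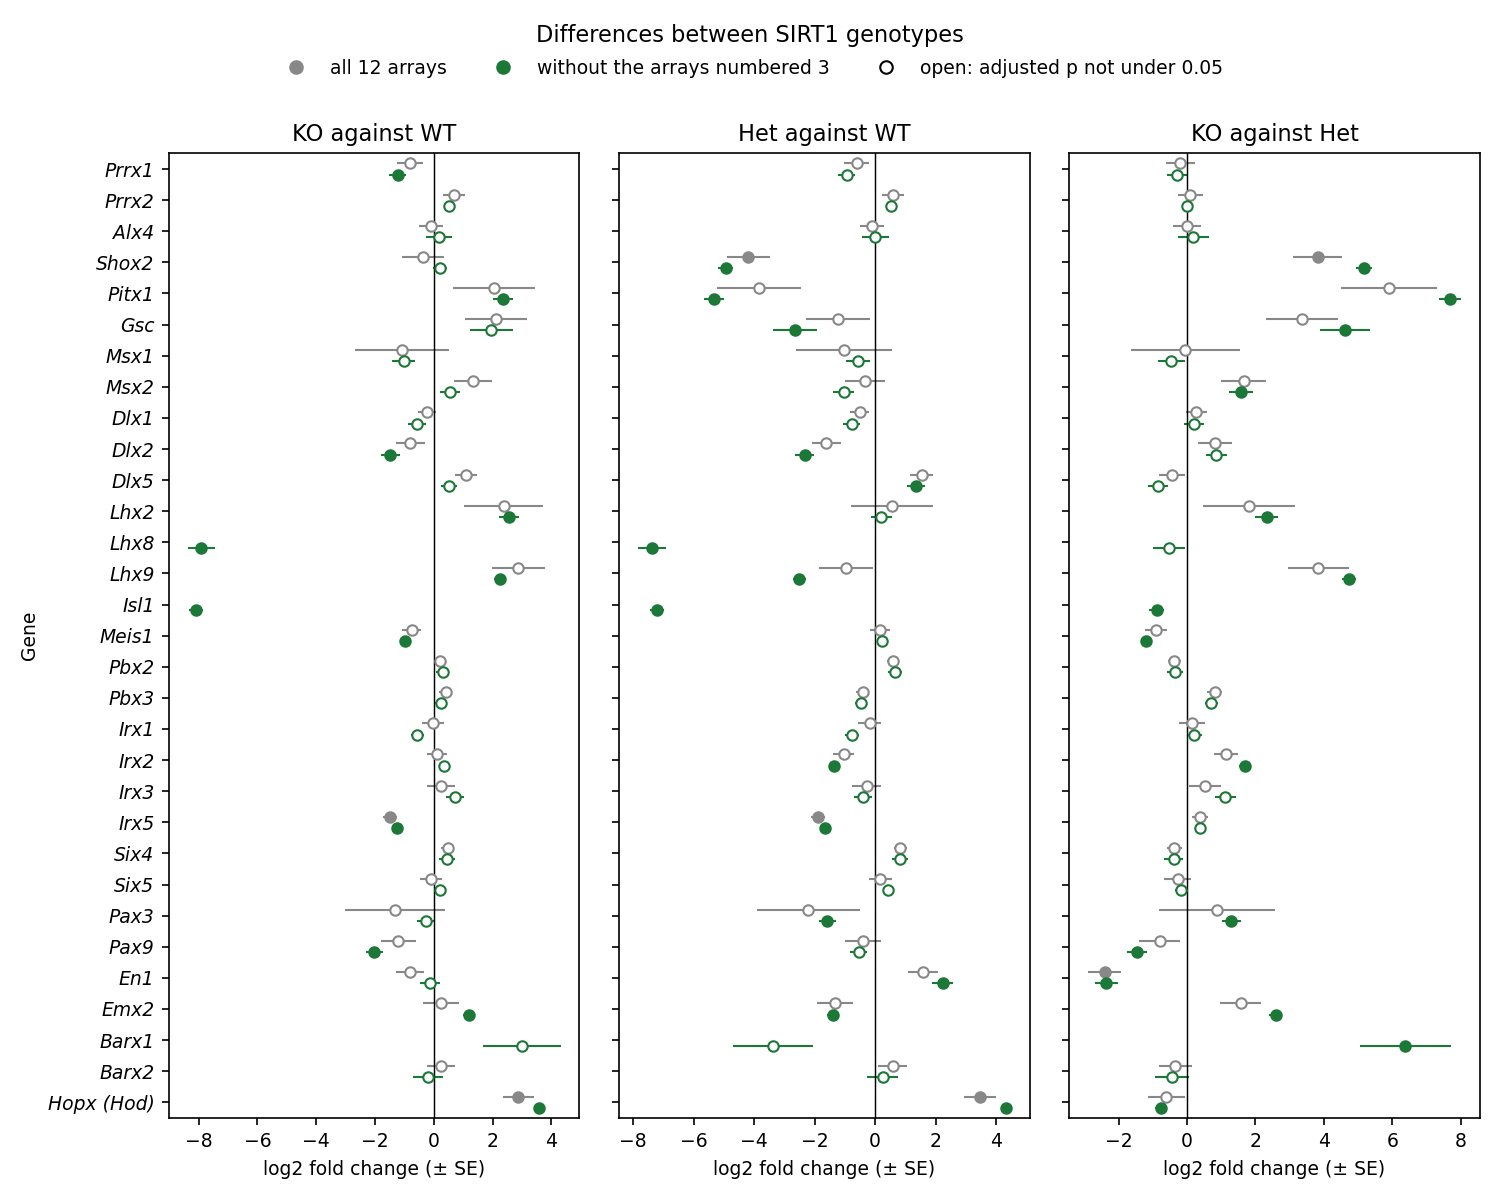
Log2 fold change (± SE) of each tested member between genotypes, KO against WT, Het against WT and KO against Het from left to right, with all 12 arrays (grey) and without the arrays numbered 3 (green). Filled points had an adjusted p under 0.05; the calls numbered 2, 3 and 2 with all arrays and 12, 14 and 15 without number 3. Lhx8, Isl1, Barx1, Irx3 and En1 entered the fit without number 3 through 1 genotype each.

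Under the same filter, the members that passed in no comparison, with or without number 3, were Alx4, Dlx1, Pbx2, Pbx3, Six4, Barx2, Irx1 and Irx3, beside the untested Dlx3, Lmx1b, Six2 and Pax1. With all arrays Irx1 ranged from 2.20 to 4.16 and Dlx1 from −2.44 to −0.67. Meis2, outside the members as Mrg1, ranged from 1.66 to 2.81 (KO against WT −0.44, adjusted p = 0.298).

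Genes that work with the members were read from chosen lists. Of 27 tested limb bud signalling and patterning genes, 0 were higher and 1 lower in KO against WT, 0 higher and 2 lower in Het against WT, and 1 higher and 0 lower in KO against Het. Without number 3, of 31 tested, the counts were 3 higher and 9 lower in KO against WT, 1 and 7 in Het against WT, and 4 and 5 in KO against Het. Of all tested genes 1.64%, 1.17% and 0.995% were called with all arrays, and 17.1%, 12.1% and 9.11% without number 3. With all arrays, Wnt5a, a Wnt ligand of limb outgrowth, was lower in KO (−1.47, SE 0.16, adjusted p = 0.00192) and in Het (−1.86, SE 0.16, adjusted p = 0.00219) than in WT cells. Bmp4, a BMP ligand upstream of Msx genes, was lower in Het than in WT cells (−2.31, adjusted p = 0.0142) and higher in KO than in Het cells (2.74, adjusted p = 0.00544). On number 3, 5 of the 27 were higher and 3 lower, against 8.94% of all tested genes called, and the median over the list was 0.26 (all genes −0.09). The hindlimb T-box gene Tbx4 was at −1.02 (KO), −1.43 (Het) and −2.42 (WT) there and at −10.04 to −4.69 on the others (5.17, SE 0.74, adjusted p = 0.00252). Fgf10, the limb bud growth factor, was higher too (3.13, adjusted p = 0.0431), as was the retinoic acid hydroxylase Cyp26b1 (2.48, adjusted p = 0.0112), while Tbx3 was lower (−2.69, adjusted p = 0.0472). The genotypes did not share these differences alike. Fgf10 on WT replicate 3 (−1.80) lay below WT replicate 1 (−0.77), and Tbx3 on KO replicate 3 (−1.78) was close to KO replicate 2 (−1.76).

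Among 39 other homeobox genes outside Hox, Zfhx3, called Atbf1 on the array, was lower in KO than in WT cells (−0.93, adjusted p = 0.0469). On number 3, 1 of the 39 was higher (Emx1, 1.27, adjusted p = 0.0465) and 5 lower, against 8.94% of all tested genes called. The furthest of the lower genes were Nkx2-5 (−2.46, adjusted p = 0.00900), Onecut2 (−1.94, adjusted p = 0.00425) and Pou3f1 (−1.68, adjusted p = 0.0262). Of 7 TALE cofactors outside the members, Pbx4 alone passed, in Het against WT (−0.72, adjusted p = 0.0494). In KO against WT, KO against Het and on number 3 none of these 7 passed, the largest differences being Pknox2 in KO against WT (0.91, adjusted p = 0.234), Tgif in KO against Het (−0.53, adjusted p = 0.636) and Tgif on number 3 (−0.67, adjusted p = 0.129). Without number 3, Pknox2 was called in KO against WT (adjusted p = 0.000316) and in Het against WT (1.56, adjusted p = 0.000405), and Pbx4 in KO against WT (−0.65, adjusted p = 0.0162) and in Het against WT (−0.85, adjusted p = 0.00677). Of 5 EYA, DACH and SKI partners, Ski alone passed, on number 3 (0.65, adjusted p = 0.00561). Between genotypes none passed with all arrays, the largest differences being Eya1 in KO against WT (−1.35, adjusted p = 0.312) and Het against WT (−1.63, adjusted p = 0.230) and Eya4 in KO against Het (1.30, adjusted p = 0.0809). Without number 3 the calls included Eya1 in KO against WT (−2.27, adjusted p = 0.0019) and in Het against WT (−2.65, adjusted p = 0.00133), and Eya4 in KO against Het (1.51, adjusted p = 0.0101).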

How the data were processed

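RNA of 12 MEF samples was read on 1-colour Agilent arrays. Spots were extracted with Agilent Feature Extraction 9.5, per the submitters' processing notes. Each deposited table gives 1 processed intensity per spot, on a linear scale with background subtracted, per the file headers. The deposited series table held the same intensity for every spot (largest relative difference 0).

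Control and outlier spots were left out, spots of a probe averaged, and log2 of the signal scaled to each array's 75th percentile. The probe with the highest mean stood for a gene. Genotypes were fitted with limma 3.58.1 in R 4.3.3, all 12 arrays in 1 fit with Benjamini-Hochberg adjustment over 16989 genes. Number 3 was fitted beside genotype. Where no array of a genotype cleared background, folds are given as "at least N-fold": the brighter group's mean over a floor set per array, namely the dimmest well-above-background probe or, if higher, the gene itself. The fits were checked on simulated data. Plots used Python 3.11.15 and matplotlib 3.10.9.

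The members and gene lists were chosen with earlier results of these data known. All members are accounted for; those called in any of the 4 comparisons are given in full, filled up to 12 by size of change, and from the lists the called genes, at most 4 per list and comparison. Array names of genes can be old; of 41174 probes 8455 had no match in RefSeq (GRCm38.p6). The number of arrays limits the precision. Slides were read from the deposited data's names. Alternatives were scaling, background correction, filters, probes, blocks and leaving out arrays. The differences between genotypes of 1 gene among the other homeobox genes are not reported here.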

Additional observations from a re-analysis of the deposited data

Results flagged for a closer look

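In groups of 4 arrays, 21 member values lay far from the other 3 arrays of their genotype, by a gap to the nearest array that exceeded Dixon's 95% critical share of the group's range. Chance flags about 1 in 20 groups, and 100 groups were examined. On KO replicate 3 the gap was 0.901 of the range for Prrx2, 0.854 for Msx1, 0.845 for Lhx2 and 0.935 for Lhx9, which were high. It was 0.924 for Shox2, 0.913 for Msx2, 0.905 for Barx1, 0.866 for Irx2, 0.912 for Emx2 and 0.961 for Pax3, which were low there. The whole range of Msx2 in KO cells was 0.15, so that gap is small in size. On Het replicate 3 it was 0.902 for Msx1, 0.831 for Lhx2, 0.924 for Lhx9 and 0.977 for Emx2, which were high, and 0.865 for Meis1 and 0.894 for Hopx, which were low. On WT replicate 3 it was 0.936 for Lhx8, 0.899 for Isl1 and 0.865 for Pax3, all low. The remaining 2 were Dlx1 on WT replicate 1 (high, 0.859) and Pax1 on Het replicate 5 (high, 0.854), which is dim on all arrays. Arrays numbered 3 thus account for 19 of the 21. Number 3 stood apart over the whole array too, beyond every other array of its genotype, 1 way in all 3 genotypes, in 16.2% of tested genes. How often such values occur over all genes was not computed, so the 21 are no result about the members.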

How the results depend on the processing

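With 3 or 4 arrays per genotype and several members near background, counts of calls moved with the processing, and the causes were not tested. KO against WT, Het against WT and KO against Het called 2, 3 and 2 members, and number 3 against the others 6. Without number 3 (left out with earlier results of these data known) the genotype counts were 12, 14 and 15. They were 11, 9 and 10 with only genes well above background on all 9 arrays (chosen after seeing the data). With number 3 as a term they were 4 in KO against WT (Irx5, Hopx, Lhx2 and Prrx2). In KO against Het they were 6 with that term (Lhx2, Lhx9, Meis1, Pitx1, Shox2 and En1, which passed the filter only through Het). With slide as a block they were 1 in KO against WT and 0 in KO against Het, and with no filter on dim probes 1 and 0. KO against Het also had 0 with a normexp background and with only genes well above background on all 12 arrays. With only the 2 genotypes compared in the fit, 1 member was called in Het against WT and 1 in KO against Het. Leaving out 1 array at a time gave 1 to 6 members in KO against WT, 1 to 8 in Het against WT, 0 to 6 in KO against Het and 5 to 11 for number 3, while the calls over all genes ran from 51 to 1758, 17 to 1472, 35 to 396 and 882 to 3019. KO against WT had 6 without WT replicate 3, 4 without Het replicate 3 and 1 without any 1 of KO replicates 2, 4 and 5 and WT replicates 1, 2 and 5. Het against WT had 8 without WT replicate 3, 5 without Het replicate 3 and 1 without any 1 of Het replicates 2, 4 and 5 and WT replicate 2. KO against Het had 6 without Het replicate 3, 4 without KO replicate 3 or WT replicate 3, and 0 without any 1 of KO and Het replicates 2, 4 and 5 and WT replicates 2 and 5. With replicate number as a block (a replicate block) the genotype counts were 1, 1 and 0. Same-numbered arrays deviated together by correlations of −0.036 to 0.427, which do not all pass 0.1, so the numbers were not taken as pairs. Over all genes the calls in KO against WT, Het against WT and KO against Het were 278, 199 and 169. They were 3045, 2163 and 1623 without number 3 (2865, 1916 and 1348 with the filter on all 9 arrays), 734, 581 and 412 with it as a term, 57, 31 and 80 with the slide block, 96, 33 and 62 with no filter, 153, 44 and 69 with normexp, and 107, 34 and 282 with only the compared genotypes. The first 2 were 115 and 82 with the replicate block and 142 and 79 unscaled. Number 3 called 1518 genes, 888 with the slide block, 958 with no filter, 947 with normexp and 879 unscaled. No called member changed direction in any setting. Of 314 values recomputed for the 13 calls, 246 kept the call and 68 lost it.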
